A study of Mus musculus with 6 samples.

Results

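The 34 genes described here are the core proteins of proteoglycans and the genes of the SPARC family, measured as RNA in the embryonic mouse pancreas. They were chosen by name and comprise 7 SPARC-family genes, 6 glypicans, 4 syndecans, 10 small leucine-rich proteoglycans, 6 chondroitin sulfate proteoglycans and the link protein gene Hapln1. Earlier results of these data were known when the 34 were chosen. Shares called among them are thus descriptive and no test against all genes. Each of the 34 was represented by 1 array row, among 19938 genes tested in all. Pancreata were dissected at E13.5 from control embryos, labelled wild type, and from Pdx1-Cre; Ctnnb1tm1Mmt/+ embryos (mutant), labelled beta-catenin activated, with 3 pools of each genotype and 3 pancreata in each pool. The Ctnnb1 allele loses exon 3 where Cre acts, which leaves a beta-catenin protein that is not marked for breakdown. Cre was driven by the Pdx1 promoter, which is active in the pancreatic epithelium, so that mesenchyme, vessels and nerves in the same dissection are not targeted. Which of the Cre and floxed alleles the control embryos carried, and their strain and sex, were not stated. Each pool was hybridised to 1 Affymetrix Mouse Gene ST array, and all values are the authors' log2 expression values (1 unit is a doubling). A pool is a sum over all cell types in the dissection, so that fewer cells of a type and less RNA per cell cannot be told apart.

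A proteoglycan is a core protein that carries long sulfated sugar chains, called glycosaminoglycans. Glypicans are tethered to the cell surface by a lipid anchor and syndecans span the membrane; both carry mainly heparan sulfate, which binds Wnt, Hedgehog and fibroblast growth factor ligands and shapes how far they spread and how well they reach their receptors. Small leucine-rich proteoglycans coat collagen fibrils, and the large chondroitin sulfate proteoglycans such as aggrecan and versican bind hyaluronan with the help of link proteins. SPARC and its relatives are matricellular proteins, secreted into the matrix to adjust adhesion and growth factor signals rather than to bear load. In the embryonic pancreas, branching epithelium grows inside a mesenchyme that lays down much of this matrix.

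Array medians over all rows lay between 6.37 and 6.47. Pearson's r over genes was 0.993 to 0.997 for pairs of arrays within a genotype, and 0.973 to 0.979 for pairs that crossed genotypes. Ctnnb1 itself read 12.36, 12.14 and 12.32 in the control pools against 12.64, 12.37 and 12.65 in the mutant pools (log2 change 0.28; SE 0.11, adjusted p = 0.148), and since this value covers the whole transcript it does not check the loss of exon 3. Of the marker genes of the labelled tissue, all 6 pancreatic epithelial genes were lower in the mutant pools. Their mean log2 value was 10.27 to 10.59 in the control pools against 6.88 to 7.06 in the mutant pools, with Pdx1 lower by 17.8-fold (adjusted p = 2.68e-08). The tissue labelled pancreas in the mutant embryos thus held much less RNA of these genes than that of the controls. All 6 are on the paper's list of selected pancreatic genes that fell on these same arrays. Their count is therefore not an independent check of the tissue.

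The proteoglycan and SPARC-family genes changed in both directions. Spock2, Sdc2, Vcan, Lum and Prelp rose in the mutant pools, and Smoc1, Acan, Sdc4, Sparcl1 and Spock1 fell, by limma with Benjamini-Hochberg adjustment over all genes at a threshold of 0.05. The 10 called genes are 29.4% of the 34, where 14.1% of all genes tested were called. The 5 that rose are 14.7%, against 6.59% of all genes, and the 5 that fell are 14.7%, against 7.53%. In 16 of the 34 the 3 mutant values lay wholly to one side of the 3 control values, 47.1% against 30.9% of all genes. The mutant pools lay above in 8 of these (16.9% of all genes) and below in 8 (13.9% of all genes). The median log2 change was 0.003 over the 34 and 0.033 over all genes, while the median size of the change without its sign was 0.243 and 0.131. Changes of 2-fold or more were called in 5 of the 34, namely Spock2, Vcan and Sdc2 upwards and Smoc1 and Acan downwards. Among all 19938 genes tested, 260 were called at that size upwards and 417 downwards. Rises and falls were thus equal in number, and the SPARC family, the syndecans and the chondroitin sulfate proteoglycans each held both.

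**Figure D1:**
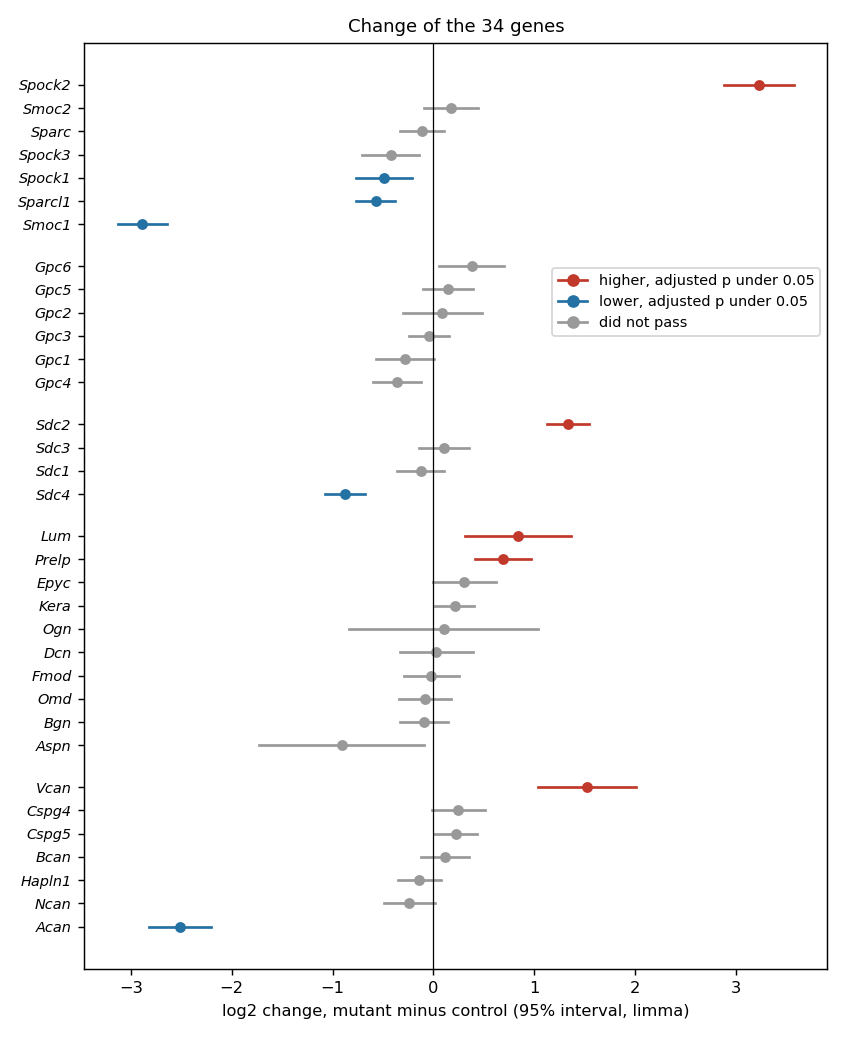
Log2 change (mutant minus control) of each of the 34 genes with its 95% confidence interval from the limma fit, grouped by family, with called genes coloured by direction. Spock2 stands farthest to the right at 3.23, Smoc1 and Acan farthest to the left at -2.89 and -2.52. The 6 glypicans lie between -0.36 and 0.38, none called.

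Stretches of sequence just before the start site give the genomic setting of genes with large changes. The 250 bases before the RefSeq start (build GRCm38.p6, written 5' to 3' on the gene's strand) are shown for Spock2, which rose most, and for Vcan and Acan, related hyaluronan-binding proteoglycans that moved in opposite directions; capitals mark the GC box GGGCGG or its reverse complement CCGCCC.

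Spock2, chr10:60106007-60106256, plus strand: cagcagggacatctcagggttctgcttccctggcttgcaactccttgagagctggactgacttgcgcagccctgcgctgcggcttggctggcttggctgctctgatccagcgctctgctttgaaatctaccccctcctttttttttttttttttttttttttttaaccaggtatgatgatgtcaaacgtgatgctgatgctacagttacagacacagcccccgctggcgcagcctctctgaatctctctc
Vcan, chr13:89742513-89742762, minus strand: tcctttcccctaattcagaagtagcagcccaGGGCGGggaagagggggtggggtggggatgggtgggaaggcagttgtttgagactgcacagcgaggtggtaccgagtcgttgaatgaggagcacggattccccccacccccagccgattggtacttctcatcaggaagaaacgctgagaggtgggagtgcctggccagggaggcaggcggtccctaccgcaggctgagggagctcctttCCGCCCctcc
Acan, chr7:79052976-79053225, plus strand: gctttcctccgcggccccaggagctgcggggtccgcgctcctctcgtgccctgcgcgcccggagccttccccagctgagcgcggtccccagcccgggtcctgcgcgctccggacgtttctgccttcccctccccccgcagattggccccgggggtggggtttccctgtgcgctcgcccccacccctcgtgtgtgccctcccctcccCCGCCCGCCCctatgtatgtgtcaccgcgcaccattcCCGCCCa

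The Spock2 stretch had 51.2% G and C bases and no GC box. Its Vcan counterpart had 62.4% and 2 GC boxes, and the Acan stretch had 74.4% and 3, of which a pair overlaps. Windows from 250 bases before to 50 after the start were held for 25 of the 34 genes, as 27 windows among 32851 in all, and were searched on both strands. The GC box was in 51.9% of the 27 and 35.7% of all windows. The TCF/LEF motif CTTTGAT was in 2 of the 27, both of Epyc, and in 3.73% of all windows. The forkhead motif GTAAACA was found in 1 of the 27, again Epyc, and in 3.65% of all windows, and the GLI motif GACCACCCA in none of the 27 and 0.253% of all windows. These are matches of letters in short windows and say nothing of whether a factor binds there or elsewhere near the genes.

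Of the 7 SPARC-family genes chosen, 1 rose and 3 fell. Fstl1, held on a list of related genes, is not counted here. The testicans Spock1, Spock2 and Spock3 join a SPARC-type calcium-binding domain to a core that can carry heparan and chondroitin sulfate chains. Spock2 read 7.90, 8.13 and 7.79 in the control pools against 11.41, 10.83 and 11.26 in the mutant pools. The lowest mutant pool was thus far above the highest control pool. The log2 change was 3.23 (SE 0.15), a 9.37-fold rise (adjusted p = 7.88e-07), rank 11 among the increases of all 19938 genes. Spock1 fell from 6.90, 6.73 and 6.58 to 6.12, 6.46 and 6.15, a log2 change of -0.49 (SE 0.12, adjusted p = 0.0262). Its groups were separated by a narrow gap, and the call was lost when control 1, control 2, mutant 1 or mutant 3 was left out (adjusted p of 0.0625 to 0.113). Spock3 was 6.74, 6.55 and 6.33 in the control pools against 6.26, 5.96 and 6.14 in the mutant pools, and its change of -0.42 (95% interval -0.70 to -0.14) did not pass the test (adjusted p = 0.0541). It passed when control 3 was left out, with an adjusted p of 0.0304.

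The SMOC genes encode secreted modular calcium-binding proteins that lie in or near basement membranes and modulate bone morphogenetic protein signals. Smoc1 read 10.26, 9.998 and 9.96 in the control pools against 7.12, 7.18 and 7.26 in the mutant pools. No other gene of the 34 fell as far, and the pools of each genotype lay close together. The fall was 7.39-fold (log2 change -2.89, SE 0.11, adjusted p = 2.04e-07), rank 48 among the decreases of all genes. Its paralog Smoc2 held values of 10.09, 9.76 and 10.09 in the controls and 10.27, 10.01 and 10.19 in the mutants. These overlap, and the change of 0.18 did not pass the test (95% interval -0.09 to 0.45, adjusted p = 0.42).

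Sparc, the founding member and a collagen-binding glycoprotein, was among the brightest of the 34 rows, from 12.52 to 12.60 in the control pools against 12.32 to 12.57 in the mutant pools. Its change of -0.11 did not pass the test (95% interval -0.33 to 0.10, adjusted p = 0.542). Sparcl1, also called hevin, fell from 11.78, 11.70 and 11.78 to 11.13, 11.18 and 11.23. That fall was small but larger than the spread between pools, at 1.49-fold (log2 change -0.57, SE 0.09, adjusted p = 0.00141).

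Of the cell-surface heparan sulfate proteoglycans, Sdc2 rose and Sdc4 fell. Sdc2, which is found mainly on mesenchymal and endothelial cells, read 8.18, 8.18 and 8.27 in the control pools against 9.54, 9.45 and 9.63 in the mutant pools. The rise was 2.52-fold (log2 change 1.33, SE 0.09, adjusted p = 7.46e-06). Sdc4, which works at focal adhesions, fell from 8.63, 8.61 and 8.66 to 7.66, 7.81 and 7.79, which is 1.84-fold (log2 change -0.88, SE 0.09, adjusted p = 0.000114). In both genes the gap between genotypes was several times the range within either. Sdc1, the main epithelial syndecan, did not pass the test, with values of 9.27 to 9.54 in the control pools against 9.25 to 9.40 in the mutant pools (log2 change -0.13, 95% interval -0.36 to 0.11, adjusted p = 0.524). Sdc3, best known from nervous tissue and muscle, lay between 9.30 and 9.63 in the controls and 9.43 and 9.61 in the mutants (0.10, adjusted p = 0.65).

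None of the 6 glypicans passed the test (adjusted p of 0.0529 to 0.83). The unadjusted p was under 0.05 in 2, Gpc4 and Gpc6. The median size of the glypican changes was 0.212, against 0.131 for all genes, and 50% did not overlap, against 30.9%. With 14.1% of all genes called, a count of none among 6 does not show the glypicans to be unchanged. Gpc3, which binds Hedgehog and Wnt ligands and restrains growth, read 12.52, 12.36 and 12.40 in the control pools against 12.38, 12.35 and 12.42 in the mutant pools. The groups overlapped and the 95% interval of the change, -0.24 to 0.16, was among the narrowest of the 34. Gpc4 read 9.33, 9.41 and 9.20 in the controls and 9.03, 8.78 and 9.05 in the mutants, so that the groups did not overlap, with a log2 change of -0.36 (adjusted p = 0.0529); it passed in 4 other settings (quantile normalization, genes above the median level, a trended and robust prior, and array weights), at an adjusted p down to 0.0175. Gpc6 lay the other way, at 10.30, 9.83 and 10.35 against 10.64, 10.40 and 10.58, a change of 0.38 (adjusted p = 0.125), which passed with housekeeping centring and with array weights. Gpc1 had a change of -0.28 (adjusted p = 0.208), its 3 mutant values of 9.60 to 9.65 lying below the control values of 9.68 to 10.19, and passed with array weights alone. The log2 change of Gpc2 was 0.09 and that of Gpc5, whose row was dim at 4.81 to 5.24 over the 6 pools, 0.14 (adjusted p = 0.823 and 0.479). Gpc3 and Gpc4 are direct neighbours on chromosome X, as are Gpc5 and Gpc6 on chromosome 14.

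**Figure D2:**
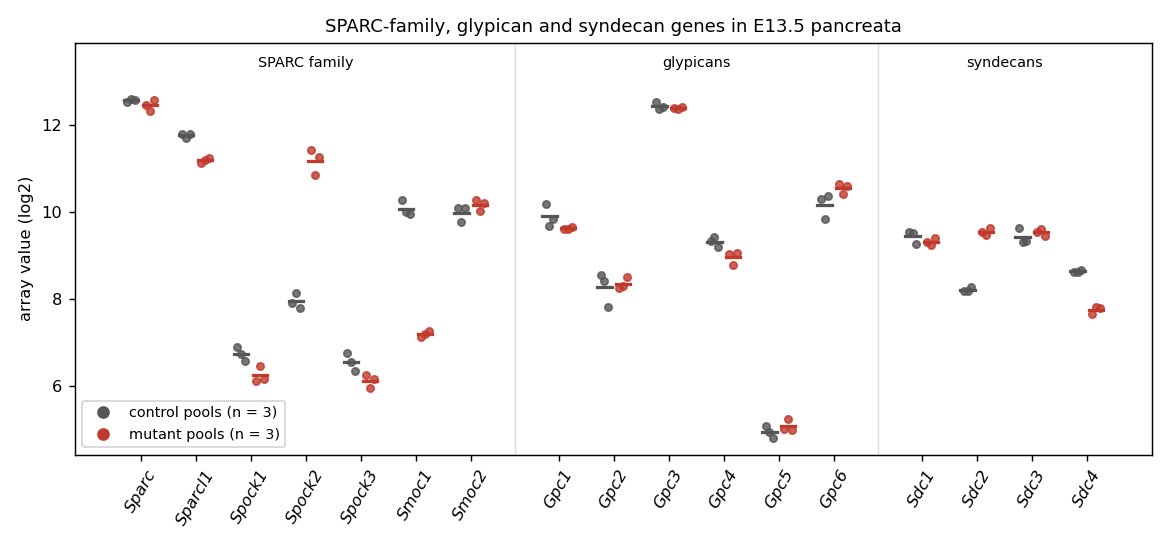
Log2 expression in each pool for the SPARC family, glypicans and syndecans, with 1 point per pool (3 control, 3 mutant) and a line at each group mean. Spock2 and Sdc2 lie higher and Smoc1 and Sdc4 lower in all 3 mutant pools, while Sparc, Gpc3 and Sdc1 overlap.

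Among the 10 small leucine-rich proteoglycans chosen, Lum and Prelp rose and none fell. Chad and Podn, held on the list with other leucine-rich matrix genes, were called lower. Prelp, whose protein anchors basement membranes to the connective tissue beneath, read 6.14, 6.33 and 6.27 in the control pools against 7.02, 6.68 and 7.11 in the mutant pools. All 3 mutant pools were higher, and the rise was 1.61-fold (log2 change 0.69, SE 0.12, adjusted p = 0.00399). Lum encodes lumican, a keratan sulfate proteoglycan that spaces collagen fibrils, and read 7.86, 8.61 and 8.97 in the controls and 9.35, 9.15 and 9.46 in the mutants. The control pools were spread over more than 1 log2 unit, with control 1 lowest. The rise of 1.79-fold (log2 change 0.84, SE 0.23) had an adjusted p of 0.0394, and the call was lost when any 1 array other than control 3 was left out (log2 change 0.53 to 1.08 over the 6 omissions, adjusted p of 0.0526 to 0.116 where lost).

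Dcn encodes decorin, a collagen-binding proteoglycan that sequesters transforming growth factor beta, and was bright in every pool, from 11.14 to 11.83 in the controls and 11.49 to 11.66 in the mutants. Its change of 0.03 did not pass the test (95% interval -0.34 to 0.39, adjusted p = 0.946). Biglycan (Bgn), its closest relative, lay between 11.71 and 12.00 in the controls and 11.67 and 11.85 in the mutants (-0.09, adjusted p = 0.658). Fibromodulin (Fmod), another regulator of fibril thickness, lay between 8.46 and 8.88 and between 8.51 and 8.73 (-0.02, adjusted p = 0.941). For these 3 genes the group means were within the spread of the pools.

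Ogn and Aspn varied most between pools of the same genotype. Osteoglycin (Ogn) read 7.18, 8.45 and 8.32 in the control pools against 8.20, 7.18 and 8.88 in the mutant pools, and its change of 0.10 has a 95% interval from -0.83 to 1.04 (adjusted p = 0.92). Asporin (Aspn), which binds collagen and transforming growth factor beta, read 7.38, 8.37 and 8.46 in the controls and 7.33, 6.34 and 7.81 in the mutants. Its change of -0.91 (SE 0.37) was larger in size than that of Lum but did not pass the test (adjusted p = 0.147). In both genes control 1 was the lowest control pool and mutant 2 the lowest mutant pool. Osteomodulin (Omd), which lies between them in the gene order of chromosome 13, was dim at 3.53 to 3.93 over the 6 pools (-0.08, adjusted p = 0.728).

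Keratocan (Kera) and epiphycan (Epyc), proteoglycans of cornea and cartilage, were also dim. Kera lay between 4.58 and 4.66 in the controls and 4.81 and 4.84 in the mutants, without overlap, yet its change of 0.21 did not pass (adjusted p = 0.15). The log2 change of Epyc was 0.31 (adjusted p = 0.209), with 1 mutant pool, at 4.08, inside the control range of 3.96 to 4.16; without that pool, mutant 3, it passed (adjusted p = 0.0399). Dcn, Lum, Kera and Epyc follow each other on chromosome 10, and of the 4 only Lum was called.

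Among the chondroitin sulfate proteoglycans, Acan fell and Vcan rose. Acan, the aggrecan of cartilage, read 8.29, 8.62 and 8.19 in the control pools against 5.94, 5.97 and 5.64 in the mutant pools. The fall was 5.72-fold (log2 change -2.52, SE 0.14, adjusted p = 1.62e-06), rank 70 among the decreases of all genes. Vcan, the versican of loose embryonic mesenchyme and of developing vessels, rose from 8.27, 8.83 and 9.33 to 10.41, 10.27 and 10.31. Its mutant pools were close together and its control pools far apart, with control 1 lowest. The rise was 2.87-fold (log2 change 1.52, SE 0.22, adjusted p = 0.000939), and the log2 change lay between 1.25 and 1.78 with any 1 array left out.

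The other genes of this family did not pass the test. Brevican (Bcan) and neurocan (Ncan) are proteoglycans of the nervous system; Bcan lay between 5.27 and 5.55 in the controls and 5.45 and 5.65 in the mutants (0.12, adjusted p = 0.573), and Ncan between 6.46 and 6.79 and between 6.27 and 6.51 (-0.24, adjusted p = 0.225). Cspg4, also called NG2 and carried by pericytes and glial progenitors, had a log2 change of 0.25 (adjusted p = 0.226) with mutant 3 at 7.80 inside the control range of 7.74 to 7.84. Cspg5 rows were 5.83 to 6.09 in the controls and 6.16 to 6.19 in the mutants, apart but not called (0.22, adjusted p = 0.187). Hapln1, whose link protein fastens aggrecan and versican to hyaluronan, lay between 7.13 and 7.26 in the controls and 6.92 and 7.13 in the mutants (-0.14, 95% interval -0.35 to 0.07, adjusted p = 0.429).

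**Figure D3:**
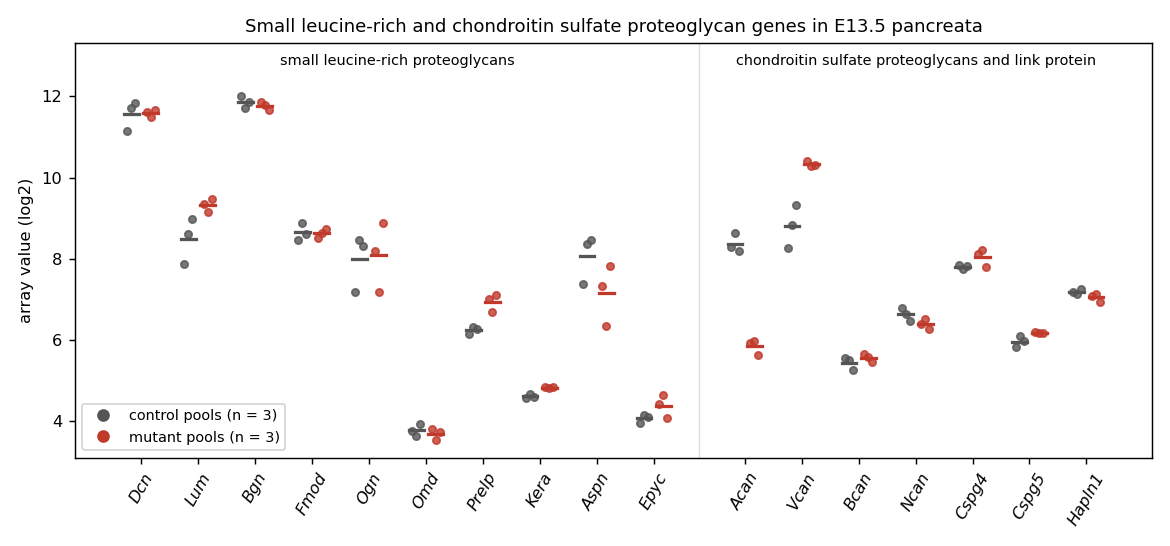
Log2 expression in each pool for the small leucine-rich proteoglycans, the chondroitin sulfate proteoglycans and Hapln1, with 1 point per pool and a line at each group mean. Acan falls and Vcan rises in every mutant pool, and Ogn, Aspn, Lum and Vcan spread over more than 1 log2 unit between control pools.

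Hyaluronan-binding proteoglycans and link proteins lie side by side in the genome, and called genes had neighbours that did not share their direction. Acan and Hapln3 are adjacent on chromosome 7 in the RefSeq gene order; while Acan fell, Hapln3, another link protein gene, rose from 5.92, 5.75 and 5.74 to 7.41, 7.004 and 7.39 (2.76-fold, log2 change 1.46, adjusted p = 3.34e-05). Vcan and Hapln1 are adjacent on chromosome 13, and of that pair only Vcan was called. Neither gene was called of the pairs Bcan and Hapln2 on chromosome 3 and Ncan and Hapln4 on chromosome 8. On chromosome 1, Prelp rose between Fmod and Optc, neither of which was called.

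Differences between related genes were also taken within each pool, which removes any scaling of a whole array. The 9 pairs were chosen after their values were seen, and with 3 pools against 3 the smallest two-sided p that an exact permutation test can give is 0.1, which each of the 9 reached. Log2 values of different genes rest on different probes, so that only the shift between genotypes is comparable, not which gene of a pair had more RNA. Vcan minus Acan was 0.44 ± 0.61 (SD, n = 3) in the control pools against 4.48 ± 0.18 in the mutant pools, a shift of 4.04 or 16.4-fold. The difference Spock2 minus Spock1 went from 1.20 ± 0.20 to 4.92 ± 0.49, a shift of 3.72 or 13.2-fold, and Smoc2 minus Smoc1 from -0.09 ± 0.20 to 2.97 ± 0.17, a shift of 3.06 or 8.36-fold. Among syndecans, Sdc2 minus Sdc4 went from -0.42 ± 0.03 to 1.79 ± 0.13, which is 2.21 or 4.63-fold. The shift was 3.98 for Hapln3 minus Acan, 3.65 for Spock2 minus Spock3, 1.75 for Lum minus Aspn, 1.66 for Vcan minus Hapln1 and 0.74 for Gpc6 minus Gpc4. In all 9 pairs every mutant pool lay above every control pool.

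**Figure D4:**
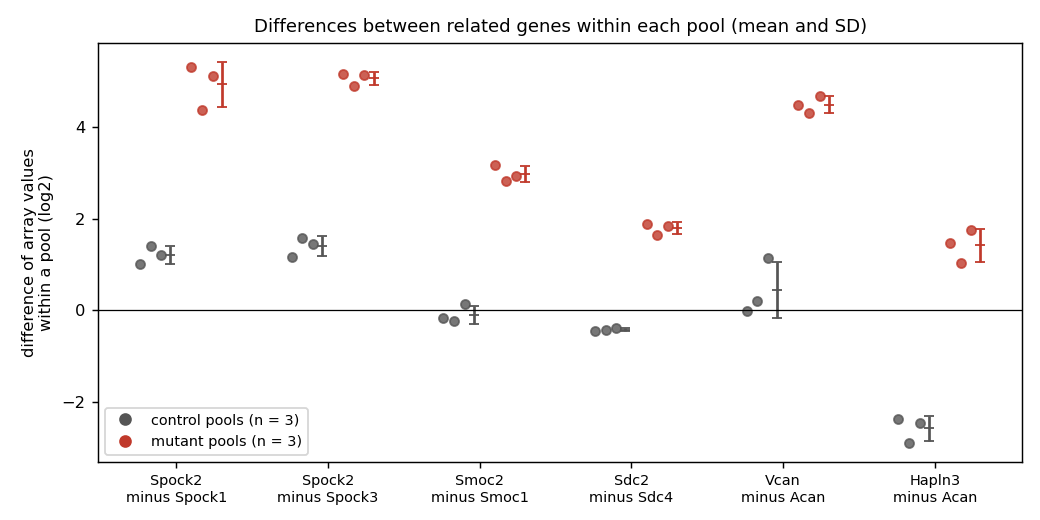
Within-pool difference in log2 value (vertical axis) between the genes of 6 of the pairs, with 1 point per pool and, beside the points, the mean and SD of the 3 control or 3 mutant pools. The shift is widest for Vcan minus Acan (4.04) and, of those drawn, smallest for Sdc2 minus Sdc4 (2.21).

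The proteoglycan genes varied more between control pools than most genes did. Their median SD was 0.157 log2 units between control pools and 0.122 between mutant pools, where all genes had 0.114 and 0.118. Control values spanned more than 1 log2 unit in 4 of the 34 (11.8%, against 0.602% of all genes), namely Lum, Ogn, Aspn and Vcan, and control 1 was the lowest in each. Decorin shared that order at a smaller range. Mutant values spanned more than 1 log2 unit in Ogn and Aspn (5.88% against 0.361%), with mutant 2 lowest in both. Mutant 2 was the lowest mutant pool in 17 of the 34 genes, mutant 3 in 10 and mutant 1 in 7. The same count was not made over all genes, so that this order cannot be called particular to the 34.

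Genes that build, trim or release the sugar chains, and other matrix genes, changed alongside the core proteins. The 7 lists of related genes also cover hyaluronan genes, other proteoglycans and other matricellular genes. These lists too were chosen with earlier results of these data known, so that the share called on them is descriptive. Of the 90 genes tested on all 7 lists, 24 rose and 8 fell (35.6% called, against 14.1% of all genes). Their median log2 change was 0.087, and the count of falls was 5 when control 1 or mutant 1 was left out. Notum encodes an enzyme that acts on the lipid of Wnt proteins and has been proposed to release glypicans. Its row read 7.20, 6.56 and 7.15 in the control pools against 11.00, 10.88 and 11.08 in the mutant pools. The Notum rise of 16.2-fold (log2 change 4.02, SE 0.16, adjusted p = 3.04e-07) exceeded that of any of the 34 genes. Notum was 1 of 6 genes listed under release and breakdown of heparan sulfate. On that list Hpse, the heparanase that cuts the chains, also rose (1.46, adjusted p = 0.000308), as did Gpld1 (0.35, adjusted p = 0.0352). The Gpld1 call was lost without control 1, control 3, mutant 1 or mutant 3. Hpse2, which encodes a relative of heparanase without its cutting activity, fell by 1.02 on the log2 scale (adjusted p = 0.00678).

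Among 20 tested genes of heparan sulfate synthesis and sulfation, 5 rose and 1 fell. The rises were led by sulfotransferases that add the rare sulfate at the 3-O position: Hs3st3b1 (1.93, 3.8-fold, adjusted p = 0.000179), Hs3st2 (1.06, adjusted p = 6.9e-05) and Hs3st3a1 (0.82, adjusted p = 0.00431). Hs3st3a1 and Hs3st3b1 are near-identical in their catalytic part and probes may read both. Ext1, a subunit of the enzyme that lengthens the chain, rose by 0.58 (adjusted p = 0.00831), and Hs6st1, a 6-O-sulfotransferase, fell by 0.56 (adjusted p = 0.0017); without mutant 2, the count of falls was 2. Of the 6 genes that start the chains on the core protein only the xylosyltransferase Xylt1 was called, with a fall of 0.63 (adjusted p = 0.00883).

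Of 16 genes of chondroitin and dermatan sulfate synthesis, 6 rose and none fell, with a median log2 change of 0.245. The rise of Chst15, which oversulfates chondroitin sulfate, was the largest (9.11, 8.91 and 9.25 in the control pools against 10.53, 10.47 and 10.46; 2.63-fold, adjusted p = 1.56e-05), followed by Dse, an epimerase that turns chondroitin into dermatan sulfate (0.72, adjusted p = 0.00295). Dsel, a second epimerase, and Ust, a uronyl sulfotransferase, rose by 0.40 each (adjusted p = 0.0228 and 0.0493). Only Chst15 and Dse were far from the threshold: the count on this list was 2 without control 1, mutant 1 or mutant 3, and 3 without control 2, control 3 or mutant 2.

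On the hyaluronan list, 2 of 12 genes rose and 1 fell. Cd44, a hyaluronan receptor, rose (1.10, adjusted p = 0.000168) beside Hapln3, and the hyaluronan synthase gene Has3 fell from 7.02, 7.12 and 7.09 to 5.45, 5.45 and 5.55 (3.02-fold, adjusted p = 1.84e-06). The count of falls was 2 without control 3. On a mixed list of 15 other proteoglycans, leucine-rich genes and further matrix genes, 2 rose and 3 fell. The rises were of Srgn (serglycin, the proteoglycan of secretory granules, 1.09, adjusted p = 7.51e-05) and Fstl1 (0.50, adjusted p = 0.02). Ptprz1, a receptor phosphatase that carries chondroitin sulfate (-0.71, adjusted p = 0.00849), Chad (-0.44, adjusted p = 0.0256) and Podn (-0.37, adjusted p = 0.0433) fell. The Fstl1 and Chad calls were both lost without control 1, control 2, mutant 1 or mutant 3, and the Podn call when any 1 array other than mutant 3 was left out, so that 1 fall was counted on this list without control 1, control 2 or mutant 1.

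Other matricellular genes rose more often than they fell, 6 against 1 of 15 tested (median log2 change 0.29). Tnc encodes tenascin C, an adhesion-modulating glycoprotein of embryonic mesenchyme, and read 6.97, 6.60 and 6.69 in the control pools against 9.18, 9.35 and 9.14 in the mutant pools (5.55-fold, adjusted p = 7.88e-07). Thrombospondins Thbs1 (1.71, 3.27-fold, adjusted p = 2.15e-05) and Thbs2 (0.99, adjusted p = 0.000262) and the CCN-family gene Ccn4, known as a Wnt target (1.02, adjusted p = 0.00012), rose as well. The fall of Tgfbi (-0.42, adjusted p = 0.0492) was lost when any 1 array other than control 2 was left out.

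**Figure D5:**
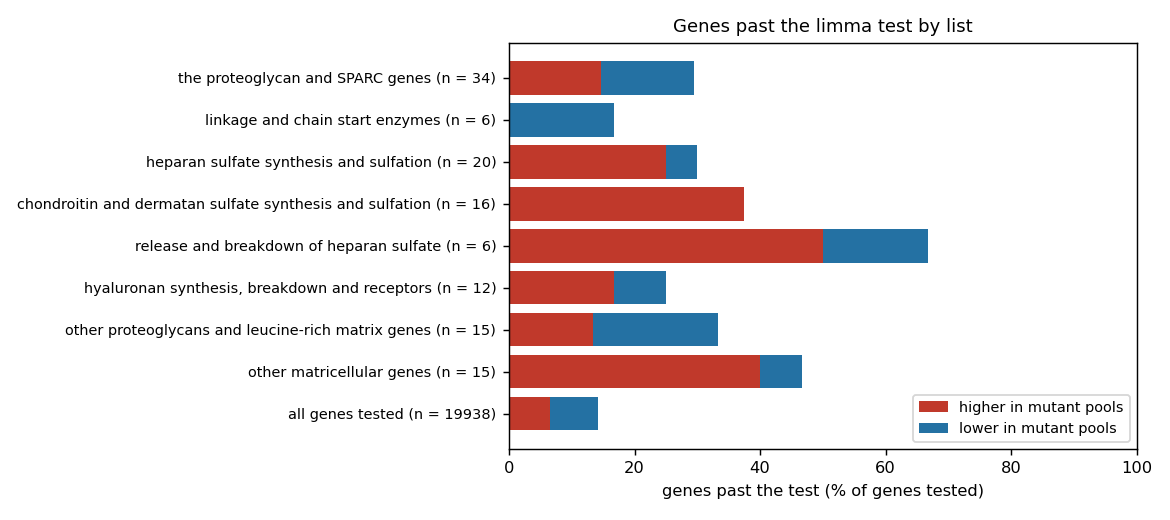
Share of tested genes (percent, horizontal axis) that were higher or lower in the mutant pools, stacked in 1 bar for the 34 genes, each of the 7 lists of related genes and all genes tested. The bar of all genes holds 6.59% higher and 7.53% lower genes, that of the 34 genes 14.7% of each, and that of chondroitin and dermatan sulfate synthesis 37.5% higher genes only.

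Markers of the cell types in the dissection moved between the genotypes as well. Beside the falls of Smoc1, Sdc4, Acan, Sparcl1 and Spock1, all 7 general epithelial markers fell, with Krt8 lower by 3.57-fold and Cdh1 by 3.2-fold. The mean log2 value of the 7 markers lay between 10.26 and 10.42 in the control pools against 9.34 and 9.48 in the mutant pools. The Epcam call was lost without control 1, control 3 or any 1 mutant array. The Cldn7 call was lost without control 2, mutant 1 or mutant 3, and the Cldn6 call without control 1. All 6 tested neuronal and glial markers fell (7.78 to 7.92 against 6.61 to 6.66). Ret (-2.59) and Dcx (-2.32) fell most, while the median log2 change of the 6 was -0.635. Which cells held this RNA was not tested. Of 6 mesothelial markers 4 fell, Krt19 being on the epithelial list too (8.10 to 8.34 against 7.58 to 7.89). That count was 2 without control 1, control 2, control 3 or mutant 1. Of 8 cartilage markers, the gene group to which Acan is usually assigned, Sox6 (-1.02) and Col2a1 (-0.64) fell and 6 were not called (7.69 to 7.89 against 7.48 to 7.60). Beside the rises of Spock2, Sdc2, Vcan, Lum and Prelp, 5 of 7 smooth muscle markers rose and 1, Des, fell (7.18 to 7.35 against 8.03 to 8.23), with Actg2 higher by 3.57-fold and Myocd by 3.26-fold.

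General mesenchymal markers were mixed, with 4 of 10 higher and 2 lower and a mean log2 value of 10.13 to 10.29 in the controls and 10.08 to 10.27 in the mutants. Within that list Tcf21 rose by 1.26 and Prrx1 fell by 2.49 on the log2 scale, and without control 1, control 3 or mutant 3 only 1 of the 10 was lower. Of 6 endothelial markers Cdh5 alone was called (0.32, adjusted p = 0.0417), and leaving out any 1 of the 6 arrays ended that call. None of 6 leukocyte markers was called, Ptprc having the smallest adjusted p (0.195) and 1 being called without mutant 2. On the liver list 2 of 5 markers, Vtn and Ttr, fell, and the other 3 were not called. An array value has no true zero, so that the absence of a cell type cannot be read from it. What part these shifts in marker RNA had in the changes of the proteoglycan and SPARC-family genes was not tested.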

How the data were processed

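Total RNA of 6 pools of E13.5 pancreata (3 control, 3 mutant, grouped by their labels) was hybridised to Affymetrix Mouse Gene ST arrays. The authors deposited log2 expression values with 35556 rows. The log2 scale was read from the range of the values. The method of background correction and of any normalization between arrays was not stated. Rows with exactly 1 gene symbol (21789) were kept, and where a gene had several rows (999 genes) the row of highest mean over all arrays, leaving 19938 genes. Genotypes were compared by limma 3.58.1 (R 4.3.3; lmFit and eBayes, no covariate), the method that the study's methods name, with Benjamini-Hochberg adjustment over all 19938 genes and a threshold of 0.05, and within-pool differences by a two-sided exact permutation test (scipy 1.17.1). The fit was tested on simulated data. Array number limits the precision, and detection calls were not used here, so dim rows may hold background. All 34 genes are named. Of other lists, up to 4 genes with the largest called change were named, or the smallest p where none passed, with fewer for some lists. Pdx1, Des, Hs6st1, Podn, Tgfbi, Epcam, Cldn6, Cldn7 and the neighbours of members were added outside this rule after their values were seen. The genes, lists and pairs were chosen with earlier results of these data known. Promoter windows and gene order are from RefSeq (GRCm38.p6), used apart from the array values.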

Additional observations from a re-analysis of the deposited data

How the results depend on the processing

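The test was repeated under 15 other settings. Of the 10 called genes of the 34, 8 kept direction and call in every setting in which they were tested, and no called gene reversed. Lum and Spock1 lost their calls in 6 and 7 settings, with adjusted p up to 0.152 and 0.12; the settings shared by both were all rows in the fit and leaving out control 1, control 2, mutant 1 or mutant 3. Of the genes not called, 9 passed in at least 1 setting, Gpc4 in 4, Spock3 in 3, Gpc6 and Epyc in 2 each, and Gpc1, Kera, Ncan, Cspg4 and Cspg5 with array weights alone. With array weights, 10 of the 34 rose and 9 fell, and 19 of the 90 related genes fell in place of 8. The related genes that fell were 5 with arrays centred on housekeeping genes, 2 with all rows in the fit and 5 at an adjusted p under 0.01. With any 1 array left out, 4 to 5 of the 34 rose and 4 to 6 fell, 16 to 21 did not overlap, and 17 to 22 of the related genes rose and 5 to 7 fell. Groups with fewer pools separate more readily, and shares over all genes were not taken in these other settings. These counts therefore cannot be set against the shares given for the main test. The cause of the shifts in the counts was not tested, beyond fewer samples where an array was left out. Centring on housekeeping genes moved the median of all genes by 0.105; 3 of the 18 tested housekeeping genes were themselves called (Pgk1 0.64, Gusb -0.67 and Reep5 -0.57).

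The labels do not say whether pools that share a replicate number were paired. Deviations from the group mean correlated at 0.014, -0.154 and -0.046 for same-numbered pools, and at -0.186 to 0.195 for differently numbered pools. With 3 pools in each group these values cannot decide whether the pools were paired. With the replicate number as a block, 5 of the 34 rose and 4 fell, and 19 of the related genes rose and 7 fell; Spock1 was the 1 called gene of the 34 that lost its call. Of the 71 related and marker genes called, 46 kept the call in every setting, 25 lost it in at least 1 setting and 0 reversed.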
